A study of Danio rerio with 24 samples.

Results

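The genes described are the annotated long non-coding RNA genes of the zebrafish (Danio rerio) that were measurable in whole embryos. A gene was included if the deposited table gave it the biotype lincRNA, antisense, processed_transcript, sense_intronic or sense_overlapping and if at least 4 libraries held at least 10 counts of it. The biotype lncRNA was also admitted but had 0 rows in the table. Of 37660 rows, 2656 carried these biotypes and 695 passed the count threshold. They were 279 lincRNA (a label for genes lying between coding genes), 243 processed_transcript (transcripts without an annotated reading frame), 157 antisense, 12 sense_intronic and 4 sense_overlapping genes. The lincRNA label was not strict: BX936337.1 and oip5-as1 carry it and each overlaps a coding gene. The 27 genes just inside the threshold, with exactly 4 such libraries, had mean counts of 4.33 to 7.08 per library. The 31 rows just outside it, with 3 such libraries, had mean counts of 3.08 to 6.46.

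Long non-coding RNAs are transcripts that do not serve as templates for protein. Some act where they are made, on chromatin or on a neighbouring gene, and others act as scaffolds or as decoys for proteins and microRNAs. Many are made at low levels and in few tissues, with the developing nervous system as a common site. Few have a known role in the zebrafish embryo, and most genes below carry only a name derived from the genomic clone.

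The libraries were poly(A)-selected RNA-seq of whole embryos, with about 50 embryos pooled in each, and all were labelled 3 days post fertilisation. Wild-type (WT) zebrafish and a line labelled knockout (KO) were exposed to the solvent DMSO, or to ML233, a compound known as an agonist of the apelin receptor, at 0.5 µM for 3 h or 24 h. Each of the 6 groups had 4 libraries, which the protocol calls biological replicates. The labels name the KO line in conflicting ways: titles give an apelin receptor knockout, the growth protocol gives mutants of aplnra and aplnrb derived from the AB strain with controls from the same grandparents, and the design text gives an apelin knockout. DMSO groups carry a time of 0 h, so treatment with ML233 and hours elapsed cannot be told apart.

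Total counts ran from 29 M to 43.4 M per library (M, SI prefix mega). The receptor genes were lower but present in KO libraries, with aplnrb at 9.70 to 17.7 counts per M counts (CPM) against 21.4 to 27.0 in WT and aplnra at 13.3 to 21.3 against 23.3 to 25.8. The first principal component of all genes held 41.6% of the variance and set 6 KO libraries apart from the other 6 KO libraries: replicates 2 and 4 of DMSO, 3 and 4 of ML233 3 h, and 2 and 4 of ML233 24 h had scores of 37.5 to 143.2, against -47.5 to -27.85. These 6 are called below the KO libraries that stand apart. They were not apart from every WT library on this component, since WT 24 h replicate 3 had a score of 43.4. The 6 were chosen from the same counts, so their extreme place in a called gene is in part set by that choice. Fits without the 6 hold fewer KO libraries, so a call can also be lost through the smaller number. In those 6 libraries the summed level of 9 macrophage and neutrophil markers was 215.3 to 251 CPM, against 91.1 to 121.6 in the other KO libraries and 59.3 to 84.1 in WT. The sum of 7 neuronal markers was 1240 to 1377 CPM there, against 1801 to 1910 and 1700 to 1979. The sum of 5 skeletal muscle markers was 44370 to 66750 CPM there, against 37690 to 42150 and 42030 to 54360. That of 5 liver markers was 5744 to 8684 CPM, against 5006 to 5717 and 5086 to 6659. Both were above the other KO libraries but overlapped WT. The skin and erythrocyte sums overlapped between the 6 and the other KO libraries. Averaged over treatments, the KO libraries had 8 of the 9 macrophage and neutrophil markers called higher, and 2 of the 7 neuronal markers called lower. Of the other marker lists, 3 of 4 skin, 1 of 3 erythrocyte and 1 of 5 skeletal muscle markers were called lower, and 2 of 5 liver markers were called higher. The part of these marker lists in the results below was not tested. In these bulk samples, fewer cells of a type and less RNA per cell cannot be told apart. WT replicates 3 and 4 separated from WT replicates 1 and 2 on the second component, which held 17.3% of the variance. They also separated on the first, with scores of -5.59 to 43.4 against -50.96 to -42.8. Principal components of the long non-coding RNA genes alone held 32.4% and 14.4%.

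Long non-coding RNA genes were expressed at low levels. Their median level, per kilobase of the gene length in the table, was 0.886 CPM per kb, with quartiles of 0.34 and 2.78. Under the same count threshold, 20963 protein-coding genes had a median of 3.67 CPM per kb. Antisense genes had the lowest median of the 3 large classes, 0.573 CPM per kb, against 0.974 for lincRNA and 1.08 for processed_transcript genes. The median gene length was 1048 bases for the long non-coding RNA genes and 2381 bases for the coding genes. A mean level of at least 1 CPM was reached by 313 genes, at least 10 CPM by 76 and at least 100 CPM by 5, and 345 genes had at least 10 counts in all 24 libraries.

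**Figure D1:**
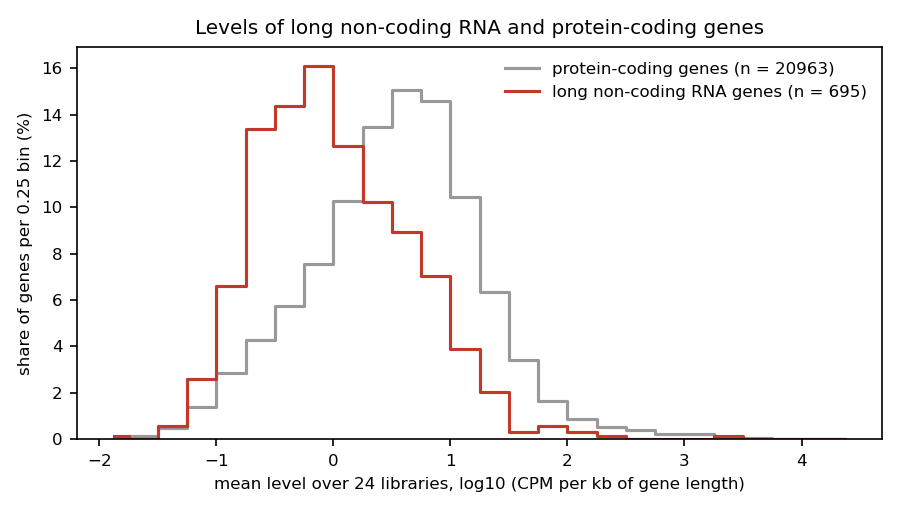
Distribution of the mean level over 24 libraries, in log10 CPM per kb of gene length, as the share of genes in each 0.25 bin, for 695 long non-coding RNA genes and 20963 protein-coding genes. The medians were 0.886 and 3.67 CPM per kb, and the distributions overlap over most of their range.

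Together the 695 genes took a small share of each library. The mean share of all counts was 0.484% ± 0.0171 in WT DMSO, 0.506% ± 0.0407 in WT 3 h and 0.487% ± 0.00966 in WT 24 h (SD, n = 4 each). In KO it was 0.519% ± 0.0134 in DMSO, 0.532% ± 0.0193 at 3 h and 0.529% ± 0.0274 at 24 h. The values of the genotypes ran into each other in DMSO, with 0.463% to 0.504% in WT DMSO and 0.500% to 0.532% in KO DMSO. A pair of genes, FO704736.1 and malat1, supplied 28.1% to 38.1% of these counts in each library. Without this pair the DMSO groups did not overlap, with 0.309% to 0.328% in WT DMSO and 0.331% to 0.360% in KO DMSO, while at 3 h and 24 h the ranges did, with 0.309% to 0.344% in WT 3 h against 0.339% to 0.365% in KO 3 h and 0.303% to 0.325% in WT 24 h against 0.321% to 0.371% in KO 24 h.

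Chromosome 4 carried the most of these genes, 56 or 8.06%, against 4.65% of all genes under the same count threshold, and chromosome 22 carried 47 or 6.76%, against 3.17%.

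The biotype label did not always match a second annotation. A reference symbol was found for 664 of the 695 genes, and 130 symbols matched 1 RefSeq gene, of which RefSeq lists 68 as lncRNA, 60 as protein-coding and 2 as another biotype. The 60 genes listed as protein-coding held 28.7% to 34.9% of the counts of the 695. The gene with the highest level was one of them: FO704736.1 (ENSDARG00000036044, chromosome 7, 58745987 to 58750400, plus strand; coordinates here and below are the table's, and the submitters' processing notes name the build GRCz11) has the symbol rps20, a protein of the small ribosomal subunit. Its mean level was 924.4 CPM in WT and 960.4 CPM in KO. LO018013.1, second in level, has a clone-derived symbol that RefSeq also lists as protein-coding, with means of 106.7 CPM in WT and 113.9 CPM in KO.

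The next genes in level were lincRNA or processed_transcript genes. BX322618.1, a lincRNA gene on chromosome 20 (12203762 to 12208117), was at 125 CPM per kb. CR383676.1, the zebrafish malat1 gene (chromosome 14, 45631236 to 45638712), followed at 109 CPM per kb. CU693494.2, BX936337.1, CR753876.1 and FQ323156.1 lay between 63.2 and 80.2 CPM per kb. These 4 genes and BX322618.1 had means in KO above those in WT: the pairs of WT and KO means were 175.3 and 287.5 CPM for BX322618.1, 63.2 and 106.2 CPM for CU693494.2, 45.2 and 68.1 CPM for BX936337.1, 64.0 and 101.9 CPM for CR753876.1, and 69.5 and 122.9 CPM for FQ323156.1. All but CR753876.1 were called in the comparison of KO with WT averaged over treatments, which is given below. Without the 6 KO libraries that stand apart, the other KO libraries had means of 161.8 CPM of BX322618.1, 44.4 CPM of BX936337.1 and 74.1 CPM of FQ323156.1. The averaged log2 fold changes without the 6 were -0.12, -0.04 and 0.08 for these 3 genes and -0.36 for CR753876.1, and none of them was called (adjusted p = 0.343, 0.853, 0.627 and 0.11 in edgeR). BX936337.1 overlaps the coding gene si:dkey-100n23.3 on the same strand, so its counts may hold reads of that gene.

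The comparison of KO with WT asked which transcripts differ between the genotypes. It was made in each treatment and averaged over the 3 treatments, with a gene called at an adjusted p under 0.05 in edgeR's quasi-likelihood test with Benjamini-Hochberg adjustment over all 27010 genes tested. Of the 695 genes, 675 had enough counts to be tested, and the 20 others had mean counts of 4.38 to 6.67. In DMSO, 1 of 675 was called, beside 0.148% of all genes. At ML233 3 h 0 were called by edgeR, beside 0.148% of all genes. For 68 (10.1%) the unadjusted p was under 0.05, beside 12% of all genes. DESeq2 called 8 at 3 h, and the share of all genes it called is not given here. At ML233 24 h 3 were called, beside 0.459% of all genes. The median standard error (SE) of a log2 fold change was 0.385 in DMSO.

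The gene called in DMSO was CR855311.1 (ENSDARG00000090352, symbol si:dkey-97i18.5), a processed_transcript gene on the minus strand of chromosome 16 from 31623975 to 31628687. Its level in WT DMSO was 8.32, 6.05, 8.98 and 7.91 CPM in replicates 1 to 4, and in KO DMSO 47.4, 78.7, 24.1 and 138.6 CPM. At 3 h it was 7.23, 8.02, 8.17 and 14.9 CPM in WT and 21, 23.6, 97.5 and 101.5 CPM in KO. At 24 h it was 6.0, 7.23, 7.34 and 8.63 CPM in WT and 37.2, 153.8, 17.7 and 137.9 CPM in KO. All 12 KO libraries were above all 12 WT libraries, and the 6 KO libraries that stand apart were the highest. The log2 fold change was 3.21 in DMSO (SE 0.638, adjusted p = 0.0463 in edgeR) and 3.57 at 24 h (SE 0.648, adjusted p = 0.0178 in edgeR). Averaged over treatments it was 3.15 (SE 0.367, adjusted p = 2.19e-05), and without the 6 KO libraries that stand apart it was 1.76 (SE 0.181, adjusted p = 7.23e-05). The DMSO call was lost when any 1 of the 4 WT DMSO libraries, or KO DMSO replicate 2 or 4, was left out; with each of the 8 libraries left out in turn the log2 fold change was 2.68 to 3.5. Its nearest coding gene, phf20l1, lay 1170 bases away and had an averaged log2 fold change of -0.01 (adjusted p = 0.945).

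The 24 h call of CR855311.1 was lost in 6 of the 8 fits that left out 1 library of these groups. The other genes called at 24 h were BX465228.2, higher in KO, and BX323559.1, lower in KO. The call of BX323559.1 was lost in 7 of the 8 fits and that of BX465228.2 in 1, without WT replicate 4, and all 3 calls were lost in a fit of these groups alone. BX465228.2 (chromosome 3, 1862871 to 1875971) was at 0.209, 0.292, 0.155 and 0.141 CPM in WT 24 h and at 0.783, 1.19, 0.722 and 1.13 CPM in KO 24 h, without overlap. Its log2 fold change was 2.24 (SE 0.353, adjusted p = 0.00802 in edgeR). BX323559.1 (chromosome 2, 32701820 to 32707411), which overlaps nrbp2a on the opposite strand, was at 0.886, 0.778, 1.24 and 0.984 CPM in WT 24 h and at 0.230, 0.339, 0.348 and 0.282 CPM in KO 24 h. These values did not overlap either, and the log2 fold change was -1.69 (SE 0.367, adjusted p = 0.0432 in edgeR). Because the strand setting of the counting is not given in the sources used here, reads of nrbp2a and of this gene cannot be told apart. At 24 h, KO and WT did not overlap for 4.15% of the tested long non-coding RNA genes, beside 5.86% of all genes.

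Averaged over treatments, 64 of the 675 passed the test, with 45 above and 19 below WT in KO. This was 9.48% of the long non-coding RNA genes, beside 15.7% of all genes, of which 9.39% were higher and 6.3% lower. The median log2 fold change was close to 0 for the long non-coding RNA genes (-0.000395) and for all genes (-0.00722). The average takes libraries of the 3 treatments as independent, which the labels do not show, so its p-values may be too small. A gene of low level can pass the count threshold through the libraries where it is high. The direction of such a gene is in part set by that threshold. Without the 6 KO libraries that stand apart, 19 genes were called, 2.78% of those tested beside 4.07% of all genes, and 11 were among the 64. The log2 fold change of 4 of the 64 then changed sign, those of BX322618.1, BX936337.1, CU914776.1 and BX005183.3, and 2 of the 64 were not tested. With WT replicates 1 and 2 only, 18 were called, 2.61% beside 5.82% of all genes, and 15 were among the 64. With WT replicates 3 and 4 only, 87 were called, 12.8% beside 20.5% of all genes, and 41 were among the 64.

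**Figure D2:**
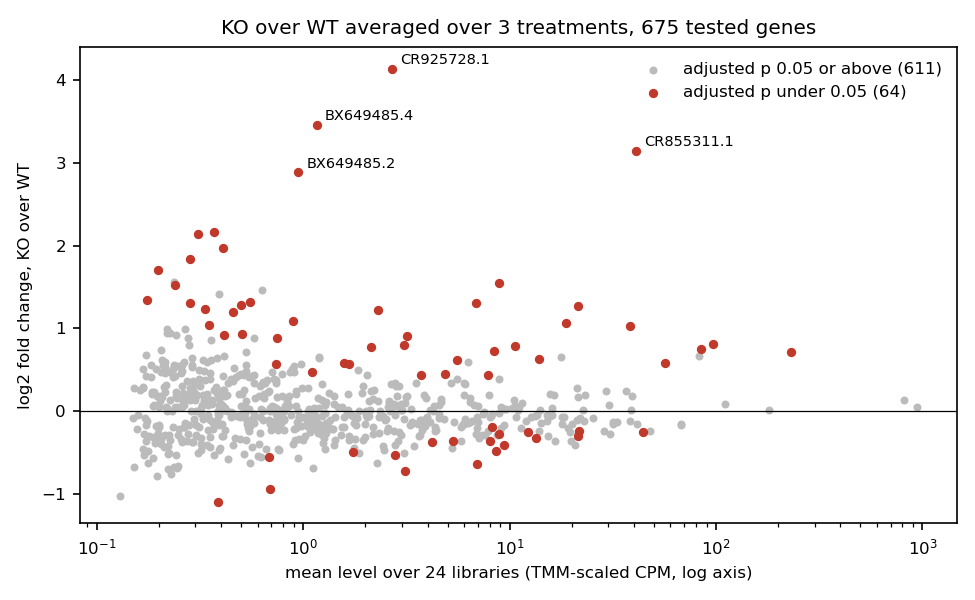
KO over WT averaged over the 3 treatments, as log2 fold change, against mean level in CPM (log axis) for the 675 tested long non-coding RNA genes, with the 64 called genes in red. The 4 labelled genes, CR925728.1, BX649485.4, CR855311.1 and BX649485.2, have log2 fold changes of 2.89 to 4.14, while no called gene is lower than -1.09.

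The share of genes called rose with their level. Below a mean of 0.5 CPM it was 5.86% of the long non-coding RNA genes and 8.58% of protein-coding genes. From 0.5 to 1 CPM it was 6.5% and 11.5%, and from 1 to 10 CPM 11.4% and 14%. At 10 CPM and above it was 19.7%, 15 of 76 genes, beside 19.6% of protein-coding genes. By class, 33 of 274 lincRNA, 20 of 236 processed_transcript, 9 of 150 antisense and 2 of 11 sense_intronic genes were called. Of the tested genes that RefSeq lists as protein-coding 6 of 58 were called, of those listed as lncRNA 6 of 66, and of those without a RefSeq match 52 of 549.

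The largest fold change among the 64 was that of CR925728.1, a lincRNA gene on chromosome 15 (42080394 to 42086212) named here after its values were seen. Its level was 0.118 to 0.650 CPM in the 12 WT libraries. The KO DMSO libraries held 0.191, 8.97, 0.381 and 12.2 CPM. Those of KO 3 h held 0.451, 0.293, 6.12 and 11.8 CPM, and those of KO 24 h held 0.300, 8.67, 0.428 and 11.4 CPM. The 6 KO libraries that stand apart held 6.12 to 12.2 CPM, and the other 6 lay within the WT range. A gene this low in WT can pass the count threshold through the libraries where it is high. The averaged log2 fold change was 4.14 (SE 0.775, adjusted p = 0.00131 in edgeR), and without those 6 libraries it was 0.24 (SE 0.317, adjusted p = 0.662). The macrophage and neutrophil marker sum was raised in the same 6 libraries. The skeletal muscle and liver sums were also above those of the other KO libraries. The part of any of these in this result was not tested.

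Of the 64, 2 genes had no overlap between the 12 KO and the 12 WT libraries, 0.296% of the tested long non-coding RNA genes beside 0.6% of all genes. They were CR855311.1 and CT573065.1 (ENSDARG00000095767, chromosome 20, 53802521 to 53810638), whose reference symbol is dio3b, a deiodinase that inactivates thyroid hormone and that RefSeq lists as protein-coding. CT573065.1 was at 14, 16.5, 10.7 and 12.9 CPM in WT DMSO and at 19.6, 37.7, 21 and 44.2 CPM in KO DMSO. Over all treatments WT libraries lay between 5.85 and 17.4 CPM and KO libraries between 17.4 and 44.2 CPM. The KO and WT ranges met closely, with the lowest KO library at 17.38 and the highest WT library at 17.36 CPM. The averaged log2 fold change was 1.28 (SE 0.203, adjusted p = 0.000342 in edgeR) and 0.71 (SE 0.184, adjusted p = 0.0403) without the 6 KO libraries that stand apart.

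**Figure D3:**
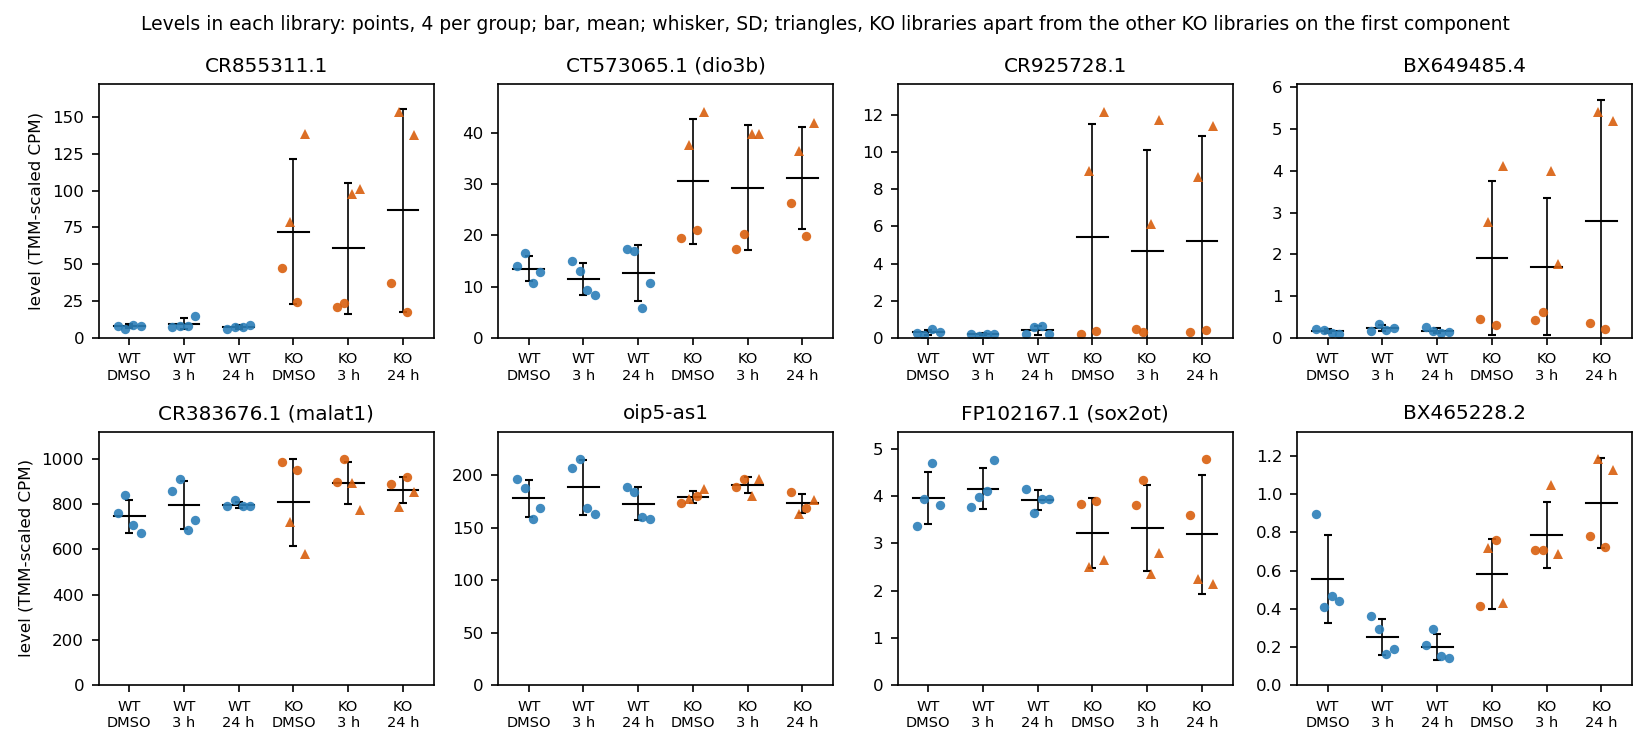
Level in CPM of 8 long non-coding RNA genes in each of the 24 libraries, by group, with the mean and SD of 4 libraries; triangles mark the 6 KO libraries that lay apart from the other KO libraries on the first principal component. CR855311.1 and CT573065.1 are higher in all KO libraries, CR925728.1 is high in the triangles alone, and the values of oip5-as1 overlap between KO and WT in each treatment.

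Some of the called genes lay near each other. On chromosome 22, 4 lincRNA genes between 11082776 and 11104253 were all called higher in KO: BX666064.1, BX649485.2, BX649485.4 and BX649485.1. Their averaged log2 fold changes were 2.14, 2.89, 3.46 and 1.53 (adjusted p = 0.00231, 0.000866, 0.000509 and 0.0349 in edgeR). BX649485.4, the highest of them, was at 0.102 to 0.324 CPM in WT. It was at 0.447, 2.77, 0.305 and 4.11 CPM in KO DMSO, at 0.429, 0.610, 4.0 and 1.77 CPM in KO 3 h, and at 0.346, 5.42, 0.214 and 5.20 CPM in KO 24 h. The 6 KO libraries that stand apart were again the highest, and without them its log2 fold change was 1.01 (SE 0.246, adjusted p = 0.0315). Without them BX649485.2 and BX666064.1, at 1.01 and 1.04, were not called (adjusted p = 0.111 and 0.19), and BX649485.1 had too few counts to be tested. BX649485.1 was called in 17 of 33 settings of the averaged comparison. BX666064.1 and BX649485.1 reached at most 0.259 and 0.339 CPM in WT, against 0.551 to 1.22 and 0.248 to 1.02 CPM in the 6. Genes this low can pass the count threshold through the libraries where they are high. The direction they share is therefore in part set by that threshold. The flanking coding genes, use1 and atp6ap2, had log2 fold changes of -0.03 and -0.08 and were not called (adjusted p = 0.856 and 0.409 in edgeR). A pair of neighbouring genes on chromosome 3, BX465228.2 and BX465228.1, between 1862871 and 1888204, had averaged log2 fold changes of 1.31 and 1.28 (adjusted p = 0.000206 and 0.00599 in edgeR). These genes were found by their distance to each other, after the values were seen. How often called genes of any kind lie this close was not counted.

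Among the 45 genes called higher, the 6 KO libraries that stand apart were above all WT libraries in 28 (62.2%). The other 6 KO libraries were above all WT libraries in 3 (6.67%) and inside the WT range in 10 (22.2%). Over all 2537 genes called higher the same shares were 64.2%, 5.64% and 26.0%. Because the 6 were chosen from the same data and weigh in the calls, these shares are descriptions and not tests. Of the 19 called lower, the 6 were below all WT libraries in 6 (31.6%), beside 40.1% of all 1701 genes called lower. The values of the lower genes moved less, with log2 fold changes of -1.09 to -0.18. FP101914.1, a sense_intronic gene within tmem201 (chromosome 23, 29841211 to 29844314), was at 8.54 to 12.5 CPM in WT and at 6.30 to 8.60 CPM in KO, so the groups overlapped narrowly. It fell by 0.48 on the log2 scale (SE 0.0756, adjusted p = 0.000343 in edgeR), while tmem201 itself had a log2 fold change of 0.06 (adjusted p = 0.474). It was lower by a similar amount without the 6 KO libraries, at a log2 fold change of -0.50 (SE 0.101, adjusted p = 0.0111).

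Several called genes of higher level, or called in every setting run, show how evenly or unevenly the KO libraries differed; they were named after their values were seen unless they are among the most abundant. CU693494.2 was at 46.5 to 66.6 CPM in WT DMSO, and at 68.5, 120.9, 85.1 and 100.9 CPM in KO DMSO. These groups did not overlap, although over all treatments the highest WT library, at 77.8 CPM, exceeded the lowest KO library, at 67.5 CPM. Its averaged log2 fold change was 0.75 (SE 0.133, adjusted p = 0.000871 in edgeR), and 0.37 (SE 0.0841, adjusted p = 0.023) without the 6 KO libraries that stand apart. In DMSO, KO and WT did not overlap for 4.3% of the tested long non-coding RNA genes, beside 7.08% of all genes.

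BX005392.3, a processed_transcript gene on chromosome 24 (17322644 to 17325645), was low throughout. It was at 0, 0, 0.0313 and 0.136 CPM in WT DMSO and at 0.415, 0.103, 0.685 and 0.316 CPM in KO DMSO. The libraries that stand apart were not the highest here: the largest value was that of KO DMSO replicate 3. Its averaged log2 fold change was 1.70 (SE 0.429, adjusted p = 0.01 in edgeR), and 2.07 without those 6 libraries (SE 0.458, adjusted p = 0.0197). BX465862.4, a lincRNA gene on chromosome 4 (11610718 to 11637382), was at 0.0281 to 0.265 CPM in the WT libraries and at 0.244 to 1.5 CPM in the KO libraries, with an averaged log2 fold change of 2.17 (SE 0.372, adjusted p = 0.000673 in edgeR). BX005392.3 likewise reached at most 0.261 CPM in WT. Both genes are low enough to pass the count threshold through the libraries where they are high. Their direction is therefore in part set by that threshold.

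Among genes with a name, BX005309.1, listed as linc.setd1ba and divergent from the histone methyltransferase gene setd1ba, was lower in KO. It was at 8.73, 7.46, 9.73 and 12 CPM in WT DMSO and at 8.74, 6.71, 8.38 and 5.86 CPM in KO DMSO, with overlap. It fell by 0.36 on the log2 scale averaged over treatments (SE 0.101, adjusted p = 0.0185 in edgeR). CU855759.1, listed as rxrga, a retinoid X receptor that RefSeq gives as protein-coding, had a log2 fold change of -0.18 close to the threshold (SE 0.0619, adjusted p = 0.0469), and was called in 8 of 33 settings. Without the 6 KO libraries that stand apart, BX005309.1 and CU855759.1 were at -0.26 and -0.13 and were not called (adjusted p = 0.228 and 0.299). BX548077.1, listed as birc6-as2, had an averaged log2 fold change of -0.13 and was not called (95% confidence interval -0.38 to 0.12, adjusted p = 0.521 in edgeR). CR936442.1, listed as erv, went the other way, at 0.81 (SE 0.188, adjusted p = 0.00617 in edgeR). Without the 6 it was at 0.53 and was not called (adjusted p = 0.198). The genes of this paragraph were picked after their values were seen.

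Some genes did not pass the test with all libraries but passed it without the 6 KO libraries that stand apart. BX571954.2, a lincRNA gene on chromosome 4 (52991210 to 52996838), was at 1.18, 0.0685, 0.863 and 0.0862 CPM in KO DMSO and at 0.0679 to 0.326 CPM in WT DMSO. Here replicates 2 and 4, which stand apart, were low and the others high. Its log2 fold change was 1.42 with all libraries (SE 0.649, adjusted p = 0.146 in edgeR) and 2.24 without the 6 (SE 0.549, adjusted p = 0.0324). It was called in 2 of 33 settings of the averaged comparison. A gene this low can pass the count threshold through the libraries where it is high, so its direction is in part set by that threshold.

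**Figure D4:**
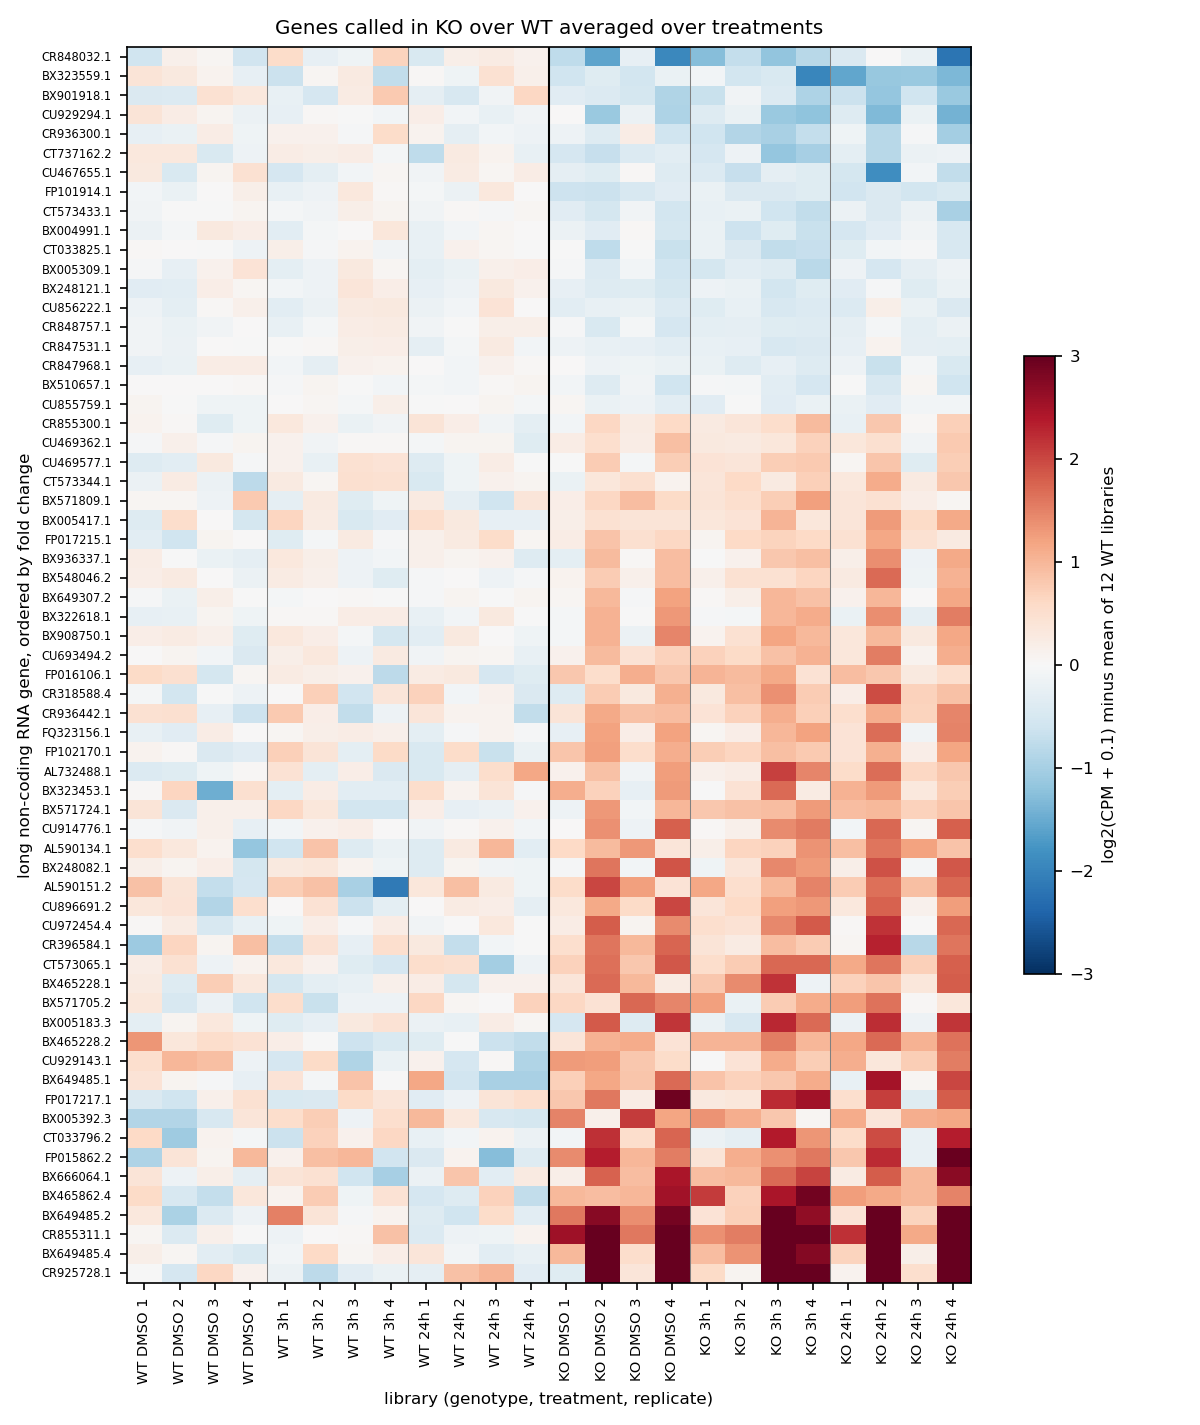
Level of the 64 called long non-coding RNA genes in each of 24 libraries, as log2(CPM + 0.1) minus the mean of the 12 WT libraries, with genes ordered by averaged fold change. The strongest red lies in 6 KO libraries (DMSO replicates 2 and 4, 3 h replicates 3 and 4, 24 h replicates 2 and 4), and 19 genes at the top are lower in KO.

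A short list of names of known long non-coding RNAs matched 4 genes, malat1, oip5-as1, gas5 and sox2ot. None of these was called with all libraries. malat1, which in mammals makes an RNA of nuclear speckles, had values of 762, 843, 708 and 671 CPM in WT DMSO and of 986, 720, 952 and 580 CPM in KO DMSO, with overlap. Its averaged log2 fold change was 0.13 (95% confidence interval -0.03 to 0.29, adjusted p = 0.284 in edgeR). Without the 6 KO libraries that stand apart it was called, at 0.26 (SE 0.0619, adjusted p = 0.0269). oip5-as1, also called cyrano and known for binding a microRNA, was at 196.5, 187.6, 158.4 and 168.5 CPM in WT DMSO and at 173, 177, 179.8 and 186.9 CPM in KO DMSO. Its averaged log2 fold change was 0.01 (95% confidence interval -0.10 to 0.12), the narrowest interval of these genes. With WT replicates 3 and 4 only it was called, at 0.14 (SE 0.0464, adjusted p = 0.0398).

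gas5 (CU467861.1), in mammals a host gene of small nucleolar RNAs, was at 4.51, 4.75, 6.32 and 6.04 CPM in WT DMSO and 3.99, 5.62, 6.45 and 5.80 CPM in KO DMSO. Its averaged log2 fold change was 0.19 (95% confidence interval -0.03 to 0.42, adjusted p = 0.244 in edgeR). sox2ot (FP102167.1), whose gene spans the neural transcription factor gene sox2, was at 3.37, 3.93, 4.69 and 3.80 CPM in WT DMSO and at 3.83, 2.5, 3.88 and 2.64 CPM in KO DMSO. Its averaged log2 fold change was -0.30 (95% confidence interval -0.58 to -0.02, adjusted p = 0.139 in edgeR). Over all treatments the 6 KO libraries that stand apart held 2.13 to 2.79 CPM of sox2ot and every other library at least 3.37 CPM. The 6 lay below all 18 other libraries for 3.70% of the tested long non-coding RNA genes, beside 4.65% of all tested genes. Without the 6 the averaged log2 fold change of sox2ot was 0.0026 (adjusted p = 0.99). Among the 24 fits that left out 1 library, it was called in 1. The neuronal marker sum was lower in the same 6 libraries, and its part in this value was not tested.

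ML233 was compared with DMSO in each genotype at 3 h and 24 h. None of the 675 genes was called in any of these 4 comparisons by edgeR, beside 0% of all genes in each, and DESeq2 called 0 long non-coding RNA genes in each. In WT 15 genes had an unadjusted p under 0.05 at 3 h, beside 1.68% of all genes, and 9 at 24 h, beside 0.929%. In KO there were 10 at 3 h, beside 1.51%, and 19 at 24 h, beside 2.82%. These were 2.22%, 1.33%, 1.48% and 2.81% of the 675. All of these shares lay below the share of 0.05 that tests without any effect would give. Small p-values were thus rarer than such tests would give, and small changes could be missed. The cause was not tested. Same-numbered libraries deviated together in WT at both times (r of 0.349 to 0.512) and in KO at 24 h (0.487 to 0.624). In KO at 3 h they did not in every pair. The main fit has no term for this. A fit with a term for the replicate number, given below, also called 0. In the tests of whether the response differed between genotypes, edgeR called 0 genes at either time, and DESeq2 also called 0. At 3 h 15 genes (2.22%) had an unadjusted p under 0.05, beside 0.929% of all genes. At 24 h there were 16 (2.37%), beside 1.14%. The comparisons at the 2 times share the DMSO libraries of their genotype.

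For oip5-as1 and malat1, which were abundant, the intervals were narrow. Not every abundant gene was this precise. In the comparison of genotypes averaged over treatments, the SE was 0.214 for BX322618.1 and 0.198 for FQ323156.1. oip5-as1 had a log2 fold change of 0.08 in WT at 3 h (95% confidence interval -0.11 to 0.28) and of -0.04 at 24 h (-0.24 to 0.15). In KO it was 0.09 (-0.11 to 0.28) and -0.05 (-0.25 to 0.15). For malat1 the 4 values lay between 0.09 and 0.14, and the intervals ran from -0.19 at the lowest to 0.42 at the highest. A 2-fold change of either gene would lie outside these intervals.

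The genes with the smallest p in each ML233 comparison were of low level. BX465228.2 was first in WT at both times, with 0.897, 0.407, 0.469 and 0.441 CPM in DMSO, 0.360, 0.295, 0.160 and 0.191 CPM after 3 h and the values at 24 h given above. All 4 libraries were lower at each time than the lowest DMSO library, and WT DMSO replicate 1 was well above the other 3. In WT at 3 h, 3.41% of the 675 genes had no overlap with DMSO in either direction, beside 2.98% of all genes. At 24 h the shares were 1.33% and 1.15%. BX465228.2 was chosen for its small p, so its lack of overlap is no added support. The log2 fold change was -1.13 at 3 h (SE 0.351, adjusted p = 1 in edgeR) and -1.47 at 24 h (SE 0.357, adjusted p = 1). In KO it was 0.43 and 0.70, and the difference between the genotypes at 24 h was 2.18 (SE 0.480, adjusted p = 1). The others were BX511173.1 in WT at 3 h (log2 fold change -2.05), BX088596.1, which overlaps sox3, in WT at 24 h (1.64), CR749763.3 in KO at 3 h and 24 h (1.04 and 0.95), CR388369.1, antisense to nrip1a, in KO at 3 h (1.14) and BX294178.1, antisense to irx6a, in KO at 24 h (2.02). Adjusted p-values in edgeR were 0.997 or above for each.

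Long non-coding RNA genes are often described by their position beside coding genes. The nearest coding gene overlapped on the opposite strand for 194 of the 695, overlapped on the same strand for 59, started within 2 kb in the divergent direction for 27, lay otherwise within 10 kb for 257 and farther for 158. Divergent partners included nr2f1a, foxd3, nr5a2, id2a and pou3f1, named after the list was seen. How many of the 27 belong to any 1 kind of gene was not counted. Across the 611 pairs with both genes tested, the averaged log2 fold changes between genotypes had a Pearson r of 0.09, and across coding genes and their nearest coding gene 0.18 (n = 18576). The r was 0.60 for the 23 divergent pairs and 0.30 for the 176 pairs overlapping on the opposite strand, beside 0.27 (n = 1446) and 0.13 (n = 1999) for coding pairs in those positions. In the 23 divergent pairs 1 long non-coding RNA gene was called, and its neighbour was not, so this r rests mostly on fold changes that did not pass the test. Genes are not independent replicates, both members of a pair come from the same libraries, and where strand was not used in counting, overlapping genes share reads. Of 56 called genes whose neighbour was tested, 9 (16.1%) had a called neighbour, in the same direction for 8. Of 3040 called coding genes 626 (20.6%) had a called coding neighbour, in the same direction for 432.

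**Figure D5:**
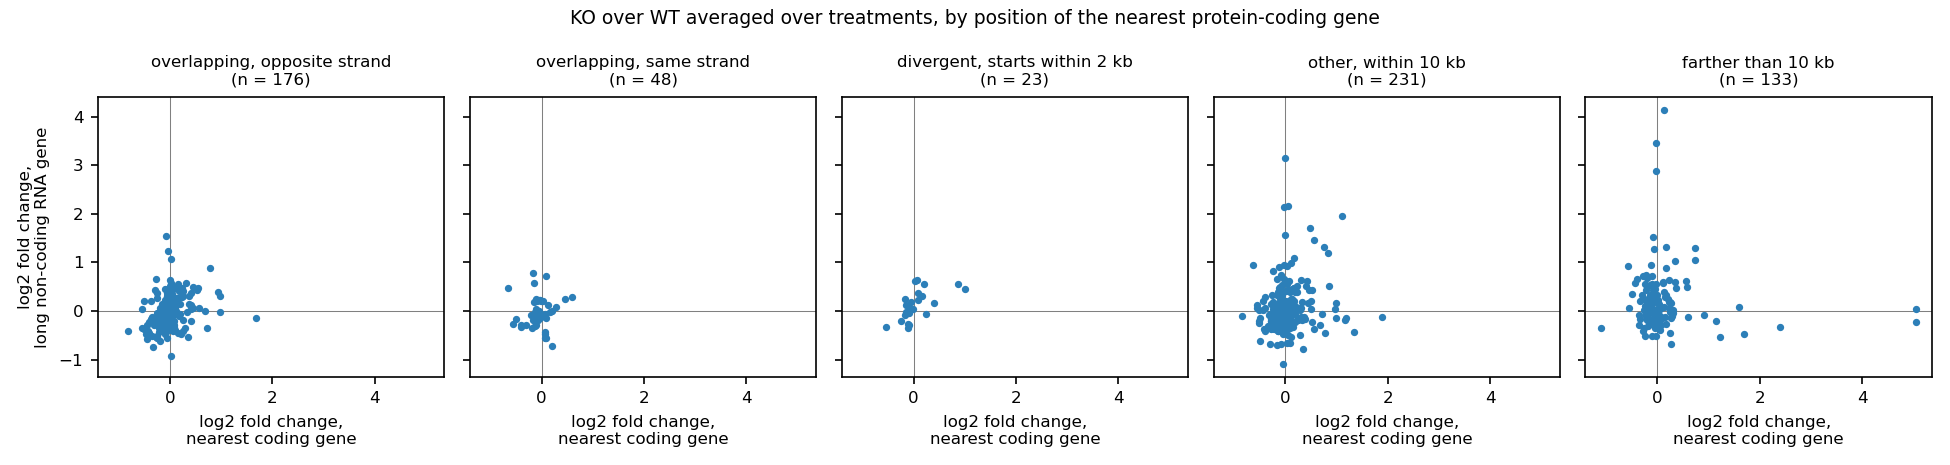
KO over WT, averaged log2 fold change, of each long non-coding RNA gene against that of its nearest protein-coding gene, by relative position, for 611 pairs with both genes tested. The 23 divergent pairs have r 0.60, with 1 of their long non-coding RNA genes called, and the highest long non-coding RNA genes have neighbours near 0.

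Levels also varied among WT libraries. Replicates 3 and 4 lay wholly above replicates 1 and 2 for 42 of the 675 tested genes and wholly below for 58. Both together were 14.8%, beside 29.0% of all tested genes. The 3 genes with the widest spread among those of at least 1 CPM were BX897741.1, BX323060.3 and BX842701.1. BX897741.1, which RefSeq lists as protein-coding, was at 1.96, 2.03, 0.438 and 0.781 CPM in WT DMSO, 1.70, 1.27, 0.417 and 0.318 CPM in WT 3 h, and 2.14, 1.69, 0.248 and 0.337 CPM in WT 24 h. Replicates 1 and 2 were higher than replicates 3 and 4 in each treatment. BX842701.1 had the same order, at 3.59, 3.80, 1.1 and 1.87 CPM in WT DMSO. BX323060.3, a lincRNA gene 45940 bases from cebpa, ranged from 0.657 to 5.02 CPM over WT libraries without that order at 24 h. None of the 3 was called between KO and WT averaged over treatments (adjusted p = 0.884, 0.674 and 0.921 in edgeR).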

How the data were processed

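Counts were deposited by the authors as 1 table of whole-number counts per gene for 24 libraries, not normalized. The submitters' processing notes name HISAT2 2.0.5, StringTie, featureCounts, R 4.3.2, DESeq2 1.42.1 and the build GRCz11, without role or order. The annotation release and strand setting are not given in the sources used here. The second strand was made with dUTP, per the labels' protocols. The gene length column of the deposited table was used for levels per kb.

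From these counts, genes passing filterByExpr (minimum count 10) were fitted in R 4.3.3 with edgeR 4.0.16: TMM scaling, 1 term per group, all 24 libraries, glmQLFit and glmQLFTest, two-sided, Benjamini-Hochberg over 27010 genes, called at 0.05. SE is the log2 fold change divided by the root of F. CPM uses TMM-scaled totals. The members and lists were chosen with earlier results of these data known. The named genes were the 8 highest in CPM per kb, those called in DMSO (at most 6), those called in the average without overlap and at least 0.5 CPM, the 2 smallest p in each ML233 comparison, known names, and the 3 widest WT spreads. Pairs of replicates differed beyond sampling noise (chi-square per degree of freedom 4.15 to 136), so each library counted as 1 sample. Same-numbered libraries deviated together in all 4 pairs (r over 0.1) for WT 3 h and 24 h and KO 24 h against DMSO and for KO against WT at 3 h, from the data alone, and not in the other comparisons. Alternatives used RLE scaling, DESeq2 1.42.0, other filters and subsets of libraries. Planned promoter motif counts were not made. The fit was tested on simulated data. No molecular identifiers are described, so precision covers counting error and the spread between samples only.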

Additional observations from a re-analysis of the deposited data

Results flagged for a closer look

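Within each group of 4 libraries, 24 measures were searched for a library far from the other 3, in 144 groups in all. There were 11 such libraries. For measures not chosen by their values, chance gives about 1 in 20 groups, or 7.2. Some of the genes were chosen from these data for a wide WT spread or a small p-value. The 11 and the 7.2 therefore cannot be set against each other as a test. Among the abundant genes, malat1 was at 818.3 CPM in WT 24 h replicate 2 against 790.6 to 793.1 in the others. BX936337.1 was at 34.3 CPM in WT 24 h replicate 4 against 47.5 to 50.0, and CR753876.1 at 80.0 CPM in WT DMSO replicate 3 against 51.3 to 54.8. CR855311.1 was at 14.9 CPM in WT 3 h replicate 4 against 7.23 to 8.17, still below every KO library. gas5 was at 9.76 CPM in KO 24 h replicate 2 against 5.91 to 6.34. BX323060.3 was at 4.35 CPM in WT 3 h replicate 1 against 0.954 to 1.18.

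The other 5 were in genes of low level. BX465228.2 was at 0.897 CPM in WT DMSO replicate 1 against 0.407 to 0.469, and at 1.05 CPM in KO 3 h replicate 3 against 0.690 to 0.708. BX511173.1 was at 0.188 CPM in WT DMSO replicate 3 against 0.298 to 0.306, and at 0.429 CPM in KO 3 h replicate 1 against 0.0899 to 0.146. BX088596.1 was at 0.262 CPM in WT 3 h replicate 1 against 0.442 to 0.449.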

How the results depend on the processing

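Counts of called genes in the single treatments depended on the setting, and the cause was not tested. They are counts of long non-coding RNA genes alone, without the share of all genes in the same setting. Averaged over treatments, the share of all genes called, given above for some subsets of libraries, moved in the same direction as that of these genes. In DMSO the count was 1 by edgeR, 7 by DESeq2, 0 with the compared groups only and 0 with WT replicates 1 and 2 only, and 0 to 1 with a library left out. At 3 h it was 0 by edgeR, 8 by DESeq2, 17 with WT replicates 3 and 4 only, and 0 to 3 with a library left out (3 without KO replicate 2). At 24 h it was 3 by edgeR, 13 by DESeq2, 0 with the compared groups only, 1 without the 6 KO libraries that stand apart, 0 with WT replicates 1 and 2 only, 5 with WT replicates 3 and 4 only, and 0 to 14 with a library left out. The 24 h count was 1 without any of WT replicates 1 to 3 or KO replicates 2 or 4, 0 without WT replicate 4, 5 without KO replicate 1 and 14 without KO replicate 3. The averaged count of 64 became 19 without the 6 KO libraries, 18 with WT replicates 1 and 2 only and 87 with WT replicates 3 and 4 only (41 of them among the 64), lay between 49 and 84 with a library left out, and was 74 by DESeq2. With the replicate block, a term for the replicate number, it was 78, 63 of them among the 64, and the block gave 1 in DMSO, 0 at 3 h, 3 at 24 h and 0 for ML233 and for the difference between genotypes. In all 33 settings of the averaged comparison 9 genes were called: FP101914.1, CU693494.2, CT573065.1, CR855311.1, BX649485.4, BX465862.4, BX465228.2, BX323559.1 and BX005392.3. The share of all genes called in every setting was not counted. The settings share most of their libraries, and 24 of them leave out only 1, so they are not independent checks. CR855311.1 in DMSO missed the threshold with the compared groups only (log2 fold change 3.21) and with WT replicates 1 and 2 (3.33) or 3 and 4 (3.09) only. For ML233 against DMSO, 1 gene, FQ323156.1, was called in WT at 3 h with WT replicates 1 and 2 and the compared groups only, a setting added after seeing the data, and 0 in every other setting run. The mean share of counts, 0.509%, was 0.541% of counts without mitochondrial genes and 0.551% without loci lacking an Ensembl identifier. Of the 64 called genes 4 changed sign without the 6 KO libraries, among them BX322618.1 (-0.12) and BX936337.1 (-0.036), and 0 in the other settings. Named genes that were not called also changed sign. Without the 6 libraries CR753876.1 was at -0.36, sox2ot (FP102167.1) at 0.0026, BX323060.3 at 0.53, BX842701.1 at 0.32 and BX897741.1 at 0.59. With WT replicates 3 and 4 only the last 3 were at 0.63, 0.71 and 1.26, and with WT replicates 1 and 2 only oip5-as1 was at -0.12. With a library left out, BX323060.3 lay between -0.35 and 0.17, BX897741.1 between -0.37 and 0.011, and oip5-as1 between -0.011 and 0.033. Depth limits the low genes: 239 of the 675 had a mean under 0.5 CPM.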
